A study of Homo sapiens with 6 samples.

Results

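The 6 Mb window of chromosome 4 from 52000000 to 58000000 (GRCh38) lies in cytogenetic band 4q12 and holds the receptor genes PDGFRA, KIT and KDR. Its members were all peaks of the 6 deposited accessibility lists that overlap the window, with peaks that share 1 bp or more merged across lists. This gave 1168 of the 507440 regions over all chromosomes, and the rest of chromosome 4 held 21841. The lists come from an assay for transposase-accessible chromatin (ATAC-seq), in which a transposase inserts sequencing adapters into open DNA. The cells were NCI-H1703, an established human line from a lung squamous cell carcinoma that is known for amplification of PDGFRA. There were 3 libraries labelled as silenced for the long non-coding RNA DLGAP1-AS2 (titles with ASO) and 3 control libraries (titles with NC), each from 10000 to 50000 cells of this single line with no other treatment named. No label says that the libraries of a group came from separate cultures, so the tests measure the spread between libraries, which may be technical. The window was examined for whether the height and density of peaks, in steps of 100 kb, differ from the rest of chromosome 4 as a gain of DNA copies would make them, and whether they differ between the groups.

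PDGFRA encodes a receptor tyrosine kinase for platelet-derived growth factors. KIT encodes the receptor for stem cell factor, and KDR a main receptor for vascular endothelial growth factors. These receptors dimerise on binding their ligands and signal through their intracellular kinase domains. Amplification of this block of genes is known from several cancers, and it can include PDGFRA with or without its neighbours. More copies of a locus give more fragments from it in an accessibility library, in peaks and between them. More accessible DNA per copy also gives more fragments, and the 2 cannot be told apart in peak lists.

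Sequence from the RefSeq table (GRCh38.p14) was found for 34 of the 35 protein-coding genes of the window. The 250 bases before the start are shown for the 3 receptors, because peaks were called differently over them, and for SCFD2, PPAT and FIP1L1, whose gene-end peaks were the tallest of the window. They read 5′ to 3′ on the strand of the gene. Capitals mark matches, on either strand, to TEAD (GGAATG), AP-1 (TGANTCA), the GC box (GGGCGG), the CCAAT box (CCAAT), the TATA box (TATAAA) and the E-box (CACGTG). Matches were allowed to overlap. The PDGFRA stretch is chr4:54229043-54229292 on the plus strand, KIT chr4:54657707-54657956 on the plus strand, and KDR chr4:55125596-55125845 on the minus strand. SCFD2 is at chr4:53366062-53366311 on the minus strand, FIP1L1 at chr4:53377391-53377640 on the plus strand and PPAT at chr4:56435616-56435865 on the minus strand.
PDGFRA: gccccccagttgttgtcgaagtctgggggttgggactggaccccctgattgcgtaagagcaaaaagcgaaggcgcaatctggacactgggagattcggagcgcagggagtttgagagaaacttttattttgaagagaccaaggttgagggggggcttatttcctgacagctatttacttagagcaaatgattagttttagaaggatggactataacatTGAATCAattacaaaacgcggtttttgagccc
KIT: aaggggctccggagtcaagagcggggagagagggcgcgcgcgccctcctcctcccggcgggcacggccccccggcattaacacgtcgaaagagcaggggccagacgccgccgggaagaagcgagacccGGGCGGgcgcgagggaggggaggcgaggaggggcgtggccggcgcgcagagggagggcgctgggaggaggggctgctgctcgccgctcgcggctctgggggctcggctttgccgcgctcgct
KDR: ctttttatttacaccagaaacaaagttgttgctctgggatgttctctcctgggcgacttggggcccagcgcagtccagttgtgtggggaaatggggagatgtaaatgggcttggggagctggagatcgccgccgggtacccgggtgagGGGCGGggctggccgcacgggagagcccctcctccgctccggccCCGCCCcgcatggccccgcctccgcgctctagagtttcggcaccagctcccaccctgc
SCFD2: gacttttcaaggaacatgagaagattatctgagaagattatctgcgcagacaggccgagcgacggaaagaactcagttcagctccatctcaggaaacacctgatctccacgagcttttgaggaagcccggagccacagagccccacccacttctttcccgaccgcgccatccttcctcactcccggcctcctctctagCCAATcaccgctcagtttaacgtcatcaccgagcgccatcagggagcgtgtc
FIP1L1: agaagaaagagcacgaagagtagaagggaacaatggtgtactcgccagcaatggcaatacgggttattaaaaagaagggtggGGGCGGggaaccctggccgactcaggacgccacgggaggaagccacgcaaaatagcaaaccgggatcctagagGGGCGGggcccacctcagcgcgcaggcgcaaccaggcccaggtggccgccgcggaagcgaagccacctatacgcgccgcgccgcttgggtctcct
PPAT: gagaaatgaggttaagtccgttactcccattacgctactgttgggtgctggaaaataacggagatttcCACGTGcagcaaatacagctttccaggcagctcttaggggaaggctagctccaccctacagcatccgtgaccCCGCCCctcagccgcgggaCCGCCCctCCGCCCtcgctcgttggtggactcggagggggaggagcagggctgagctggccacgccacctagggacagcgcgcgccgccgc
The PDGFRA stretch had the lowest G and C content of these 6, at 46.8%, and no GC box. Its only match was 1 to the AP-1 pattern, as TGAATCA, at whose middle base the pattern allows any letter. The stretch of KIT had 76.4% G and C with 1 GC box, and that of KDR 65.2% with 2. Among the 34 promoters of the window, 58.8% held a GC box, 14.7% a CCAAT box, 11.8% an AP-1 match, 11.8% an E-box, 5.88% a TEAD match and 5.88% a TATA box. Over the 15843 promoters of protein-coding genes the shares were, in the same order, 56.0%, 34.5%, 5.04%, 7.84%, 10.1% and 9.23%. Over all 27305 promoters of the table they were 42.3%, 33.0%, 6.60%, 6.49%, 11.9% and 11.1%. The GC box share of the window was thus near that of protein-coding genes. These are descriptions of letters, and a match is not a bound site.

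Peaks were more crowded in the window than on the rest of chromosome 4, but on average not clearly taller. The window held 5.9, 6.47 and 4.45 peaks per 100 kb step with silencing (replicates 1 to 3) and 6.23, 3.3 and 5.82 in the controls (replicates 1 to 3). The rest of the chromosome held 3.83, 4.0 and 2.45 in the silenced and 4.14, 1.67 and 3.79 in the control libraries. The window was thus denser in each of the 6 libraries, with ratios from 1.51 to 1.97. The mean ratio was 1.66 (0.73 ± 0.16 on the log2 scale, SD, n = 6). An exact two-sided sign-flip test over the libraries gave p = 0.03125, the smallest it can give. Its adjusted p was 0.219 over 7 tests and 0.188 over the 6 planned ones. With this smallest value, and 0.1 for the group tests, no outcome could have brought an adjusted p under 0.05. The correction thus cannot decide on this difference.

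The height of a peak is the authors' pileup value at that peak, and its geometric mean was compared within each list. In the window it was 4.56, 4.70 and 4.27 in the silenced and 4.55, 9.37 and 4.88 in the control libraries. On the rest of the chromosome it was 4.29, 4.42 and 4.28 in the silenced and 4.26, 9.59 and 4.49 in the control libraries. The ratio was above 1 in 4 of 6 libraries and averaged 1.04 (0.06 ± 0.06 on the log2 scale, SD, n = 6; exact sign-flip p = 0.125, adjusted p = 0.292). Among peaks in regions called in all 6 libraries the ratio was higher, at 0.25 on the log2 scale (exact sign-flip p = 0.03125). Among peaks within 1 kb of a protein-coding gene end it was −0.03, the opposite sign.

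The coverage around a peak was read from the local background, which is (height + 1) / fold enrichment − 1 and is what the peak was set against. Its median in the window was 1.06 times that of the rest of the chromosome (0.08 ± 0.08 on the log2 scale, SD, n = 6; exact sign-flip p = 0.125, adjusted p = 0.292). Many peaks share the lowest background of their list, which holds this median down. The share of peaks above that lowest value, a measure added after the data were seen, was 51.4%, 43.6% and 83.9% in the window with silencing (replicates 1 to 3) and 42.2%, 85.4% and 56.2% in the controls (replicates 1 to 3). On the rest of the chromosome it was 35.6%, 29.7% and 63.3% in the silenced and 31.98%, 72.1% and 37.0% in the control libraries, lower than in the window in each of the 6. The window also held 5.83 protein-coding genes per Mb against 4.05 on the rest of chromosome 4. The density ratio was 0.83 on the log2 scale among peaks within 1 kb of a gene end and 0.72 among the others, and the part of gene density in it was not tested. Against all other autosomes the density ratio was −0.03 on the log2 scale and the height ratio −0.13, so the window was denser than the rest of chromosome 4 but not than the other autosomes.

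**Figure D1:**
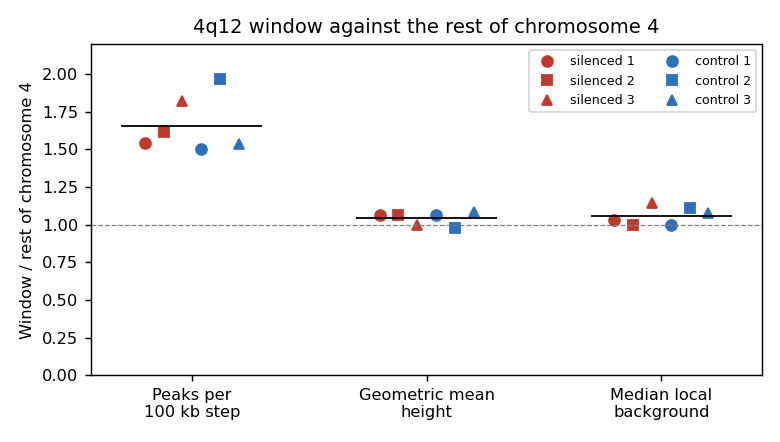
Ratio of the window to the rest of chromosome 4 (y axis) for the number of peaks per 100 kb step, the geometric mean height and the median local background (x axis), with 1 point per library and a line at the mean ratio. Peak density lies between 1.51 and 1.97 in all 6 libraries, and the other ratios lie near 1.

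The excess was not spread evenly over the window. From 52 to 53 Mb the density was 1.76 to 3.64 times that of the rest of the chromosome and the local background 1.11 to 1.63 times. From 55 to 56 Mb, where KDR lies, the density was 1.31 to 1.68 times and the local background 0.771 to 1.0 times. From 57 to 58 Mb the density was 0.478 to 0.925 times, and the heights were 0.752 to 0.861 times, below the rest of the chromosome in each library. Just outside the window the 2 edges differed. The last 1 Mb before it, next to the centromere, had 9 to 21 peaks per library. All of them lay in the steps starting at 51800000 (7 to 11 peaks) and 51900000 (2 to 10 peaks). Heights there were 1.37 to 3.59 times and the local background 1.54 to 2.55 times those of the rest of the chromosome. Crowded peaks and a raised background thus did not end at this edge. The first 1 Mb after the window had at most 14 peaks per library. Ranked by number of peaks among the 33 consecutive 6 Mb stretches of chromosome 4, the window came 2nd or 3rd in each library.

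A step was called raised when its median local background was at least 2 times the chromosome value in all 6 libraries, with at least 3 peaks in each. Of 413 steps of chromosome 4 that could be judged, 16 were raised (3.87%). In the window 30 steps could be judged and 2 were raised (6.67%), a number too small to set against that background. The one from 54200000 to 54300000 holds PDGFRA, and the one from 56400000 to 56500000 holds PPAT, PAICS and SRP72. No other step of the window that could be judged was raised. The PDGFRA step ranked 5th of the 413 by its median ratio.

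**Figure D2:**
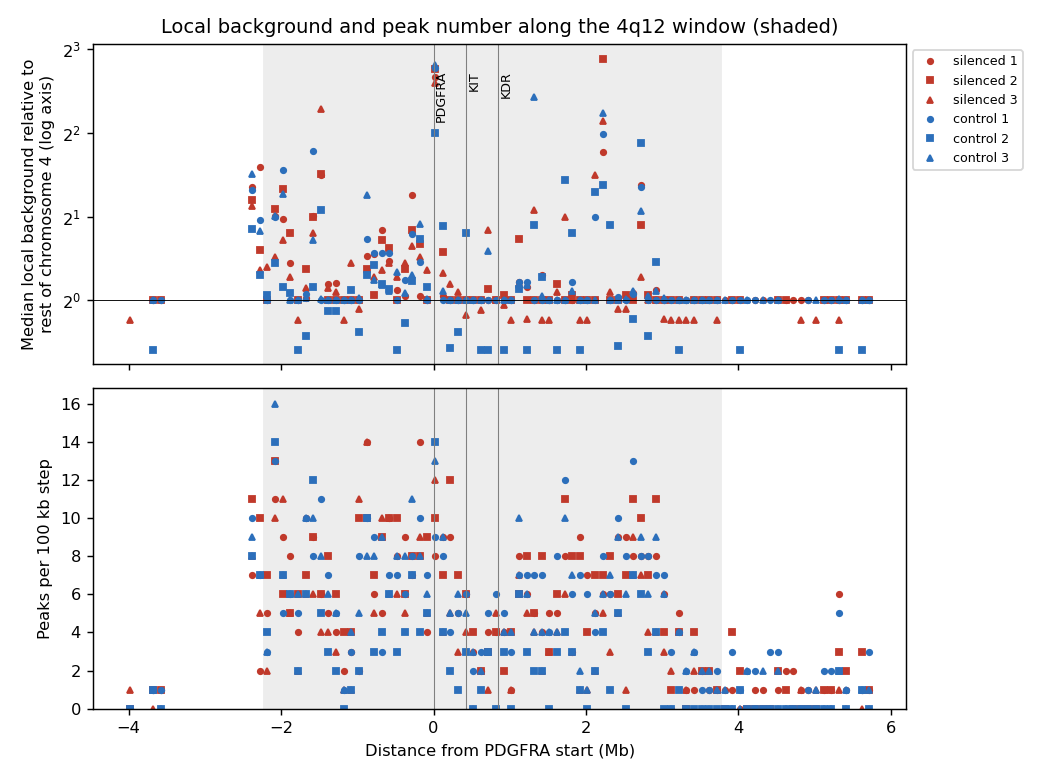
Median local background relative to the rest of chromosome 4 (upper panel, log axis) and number of peaks (lower panel) in 100 kb steps, against the distance from the PDGFRA start in Mb, with 1 point per library and the window shaded. The step at PDGFRA stands at 4.0 to 7.05 times. The steps at KIT and KDR have medians of 1.0 over the libraries, with single libraries from 0.662 to 1.74 times. Some libraries had no peak in a KIT or KDR step and so no point in the upper panel.

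PDGFRA lies from 54229293 to 54298245. The local background of its step relative to the rest of the chromosome was 6.35, 6.81 and 6.04 times with silencing (replicates 1 to 3) and 6.84, 4.0 and 7.05 times in the controls (replicates 1 to 3). The step held 8 to 14 peaks per library. The lowest of them had a height of 4, 8 and 5 in the silenced and of 9, 8 and 4 in the control libraries, where the lowest heights of whole lists were 2 or 3. These values lie above the lowest height of each list. A peak is called against its local background, so low peaks are harder to call in a step chosen for a high background. The heights are thus no separate measure of the step.

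Steps of 10 kb were chosen after the PDGFRA step was seen. They were pooled over the peaks of the 6 lists, with no smallest number of peaks or libraries per step. In these steps the raised stretch had limits on both sides. It ran without a break from 54210001 to 54310000, 100 kb in all, with step medians from 2.38 to 21.5 times the chromosome value. The step before it had 1 peak at 1.67 times, and the next 3 steps upstream had medians of 1.0. The step after it had a median of 1.0, the next 1.27, and those from 54330001 to 54370000 had 1.0. Within the stretch, the step from 54240001 to 54250000 rested on 2 peaks from 2 libraries, and 7 of 10 steps had no peak taller than 20. Of the 40 other raised 10 kb steps of the window, 13 also had none taller than 20. Local background was also high for single 10 kb steps at tall peaks of the window, such as 7.01 times within the CHIC2 span at its start in the promoter table and 14.0 times at PPAT and PAICS, but those runs were at most 20 kb long. The window had 33 runs of such steps, of which 24 were a single step and 1, that at PDGFRA, reached 5 or more. The rest of chromosome 4 had 520 runs, of which 401 were a single step and 6 reached 5 or more.

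**Figure D3:**
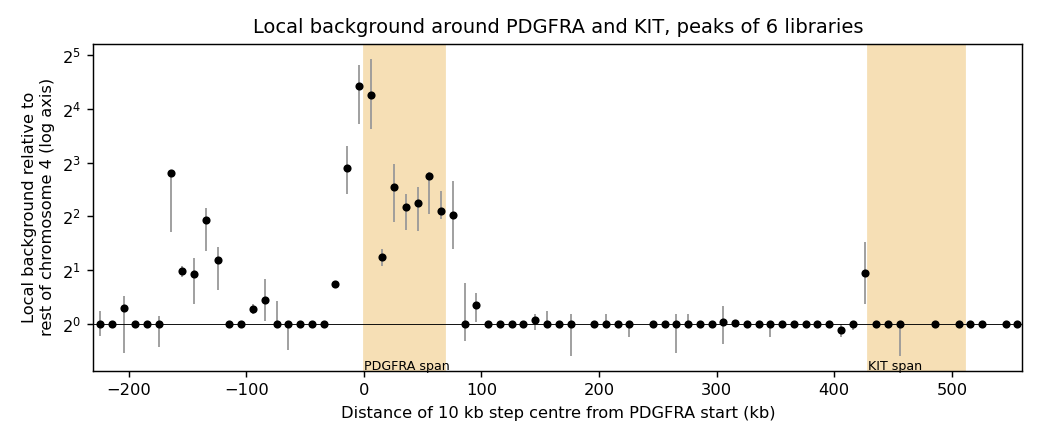
Local background relative to the rest of chromosome 4 (y axis, log axis) in 10 kb steps, against the distance of the step centre from the PDGFRA start in kb, with points at the median and bars from the lowest to the highest peak of the 6 libraries. A stretch of 100 kb over PDGFRA stands above 2 times and drops to 1.0 on its far side, before KIT.

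Within 25 kb of the PDGFRA span lay 32 members, of which 6 were called in all 6 libraries. The tallest was in the gene, 3932 bp after the start (54232764 to 54233687), with heights of 70, 101 and 37 with silencing and 73, 76 and 83 in the controls (replicates 1 to 3). Here and below, heights are as deposited and not scaled for depth, which is unknown, so heights of different libraries also carry their depth. A region 11478 bp before the start (54217323 to 54218307) had heights of 43, 60 and 29 in the silenced and 55, 49 and 49 in the control libraries. Another 1260 bp before the start (54227647 to 54228420) had 42, 65 and 33 in the silenced and 42, 52 and 43 in the control libraries. In all 3, silenced replicate 3 was lowest and silenced replicate 2 highest, and the groups overlapped. These 3 were among the 10 tallest members of the window relative to their lists.

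The peaks of this locus ranged widely in height, and their median fold enrichment over their surroundings was modest. Over the 6 regions with a call in every library the median of the mean height was 30.9 (9.33 to 73.3). That of the mean fold enrichment was 6.41 (5.04 to 11.9). The 3 regions described above were the tall ones, and the other 3 had heights from 5 to 20. For the 57 other members with a call in every library these medians were 16.2 (4.33 to 103) and 8.39 (3.83 to 22.3). At the start of the gene itself (54229023 to 54229472) a peak was called in 3 libraries, with heights of 33 in silenced replicate 1, 15 in silenced replicate 3 and 30 in control replicate 3, and fold enrichments of 3.0, 2.95 and 2.81. Its local background averaged 23.6 times the chromosome value. The peak overlaps the PDGFRA stretch of sequence printed above. In the other 3 lists no peak covers that stretch. A call is made against the local background, so a missing call gives no height.

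KIT and KDR had few and low peaks. KIT lies from 54657957 to 54740715, and 14 members lay within 25 kb of its span, 1 of them called in all 6 libraries. That region lay 856 bp after the start (54658472 to 54659154), with heights of 5, 14 and 6 with silencing and 10, 16 and 12 in the controls (replicates 1 to 3). A region over the start itself (54657828 to 54658233) was called in 5 libraries, all but silenced replicate 3, with heights of 4 and 10 in the silenced and 7, 11 and 3 in the control libraries. The median local background near KIT was 1.0, 1.0 and 0.929 times the chromosome value in the silenced and 1.0, 1.74 and 1.0 times in the control libraries. KDR lies from 55078481 to 55125595, and 0 of its 11 members were called in all 6 libraries, with 9 called in a single one. Its start region (55124954 to 55125802) was called in 5 libraries, again all but silenced replicate 3. The heights of this region were 3 and 6 in the silenced and 4, 8 and 6 in the control libraries. Not every one of these calls had a low FDR. The highest FDR in a list was 0.508 at the KIT start region and 0.0925 at the KDR start region. The tallest peak within the gene span was thus 37 to 101 at PDGFRA, 5 to 16 at KIT and, in the 5 libraries with one, 3 to 8 at KDR, with no overlap between PDGFRA and the other 2.

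**Figure D4:**
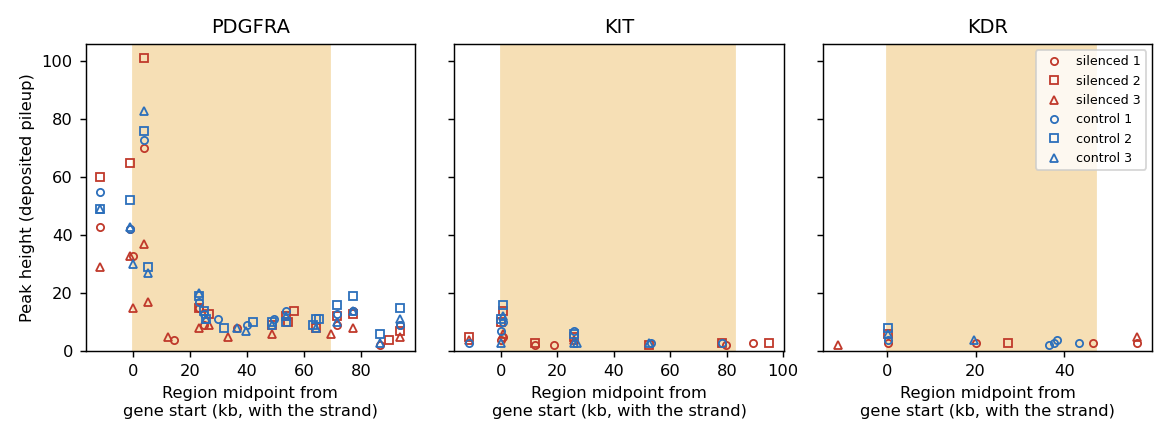
Height of every member within 25 kb of PDGFRA, KIT and KDR (y axis, deposited pileup) against its midpoint's distance from the gene start in kb along the gene's strand (x axis), with 1 point per library that called it and the gene span shaded. Heights reach 101 at PDGFRA, 16 at KIT and 8 at KDR.

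Gene-end peaks of the window had a median height close to that of the rest of chromosome 4. A peak with its midpoint within 1 kb of a gene end was called in all 6 libraries at 22 of the 35 protein-coding genes (62.9%). The same held for 53.5% of the 735 protein-coding genes on the rest of chromosome 4 and for 58.0% of all protein-coding genes. For genes called in all 6 libraries, the height of this peak relative to the geometric mean height on the rest of chromosome 4 had a median of 6.40 in the window and of 6.47 on the rest of the chromosome. LRRC66, LNX1, EXOC1L, SPMAP2L and HOPX had no such peak in any list (14.3% of the 35, where 22.2% of genes on the rest of chromosome 4 and 16.5% of all protein-coding genes had none). LNX1 encodes a ubiquitin ligase and HOPX a small homeodomain protein. The start of LNX1 in the promoter table lies inside its span. The 250 bases before that start were overlapped by a peak in 1 library, silenced replicate 3, with a height of 3.

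SCFD2 had the tallest gene-end peak of the window (53365152 to 53366315), with heights of 96, 100 and 79 with silencing and 108, 115 and 121 in the controls (replicates 1 to 3). By rank within the list, which does not use depth, the score differed between the groups by −0.12 (SE 0.23, limma adjusted p = 0.976). PPAT, which encodes the enzyme that opens purine synthesis, had 77, 74 and 50 in the silenced and 84, 84 and 78 in the control libraries. Its region overlaps the spans of PPAT and of PAICS, which encodes a later enzyme of the same pathway. FIP1L1, a factor in messenger RNA 3′ end formation, had 60, 76 and 23 in the silenced and 71, 77 and 74 in the control libraries. Silenced replicate 3 was the lowest library for each of these 3 genes.

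TMEM165, a Golgi membrane protein needed for glycosylation, had gene-end heights of 63, 72 and 19 with silencing and 73, 62 and 67 in the controls (replicates 1 to 3). EXOC1, a subunit of the exocyst that tethers secretory vesicles, had 50, 56 and 45 in the silenced and 62, 71 and 55 in the control libraries. The groups overlapped for both. AASDH ranged from 20 to 46 over the 6 libraries and NOA1, which encodes a mitochondrial GTPase, from 28 to 41. USP46, a deubiquitinating enzyme, ranged from 15 to 49. POLR2B, a large subunit of RNA polymerase II, ranged from 22 to 47, and SRP72, a part of the signal recognition particle, from 18 to 44. For these 10 genes the peak lay within 1 kb of the start in the promoter table. CHIC2 shows a limit of gene ends taken from spans: its region at the end of the span had heights from 13 to 32, and the 250 bases before its start in the promoter table were overlapped by peaks of 12 to 47.

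**Figure D5:**
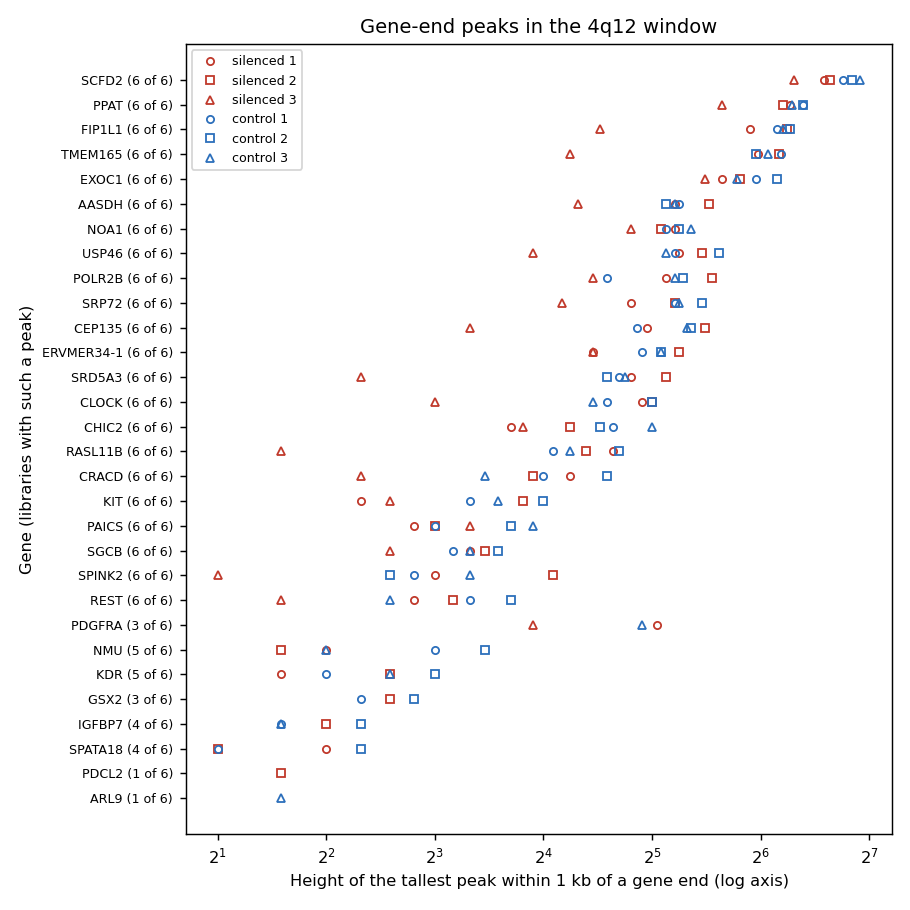
Height of the tallest peak within 1 kb of either end (x axis, log axis) for the protein-coding genes of the window with such a peak (y axis), with the number of libraries that called it in brackets and 1 point per library. SCFD2 leads with 79 to 121, KIT lies at 5 to 16, and PDGFRA is called at its start in 3 of 6 libraries.

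Apart from gene ends of protein-coding genes, 2 tall regions lay at DANCR, a long non-coding RNA linked to undifferentiated cells. One (52711903 to 52712645) overlaps the DANCR span and had heights of 98, 118 and 56 with silencing and 91, 109 and 120 in the controls (replicates 1 to 3). The other (52721938 to 52722826), outside any protein-coding or lncRNA span, had 68, 85 and 55 in the silenced and 75, 83 and 92 in the control libraries. Over all members, 883 (75.6%) had a call in 1 library only and 63 (5.39%) in every one. On the rest of chromosome 4 these shares were 76.9% and 6.10%. Of the 63 members called in all 6, 20 lay within 1 kb of a protein-coding gene end, 17 elsewhere in a gene span and 26 outside.

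Silencing of DLGAP1-AS2 was not accompanied by a detectable change of the window. The density ratio was 0.73 ± 0.12 on the log2 scale with silencing and 0.73 ± 0.22 among the controls (SD, n = 3 each, exact permutation test, two-sided, p = 1, adjusted p = 1). The height ratio was 0.06 ± 0.05 with silencing and 0.06 ± 0.08 among the controls (SD, n = 3 each, exact permutation p = 0.9, adjusted p = 1). The local background ratio was 0.08 ± 0.10 with silencing and 0.09 ± 0.08 among the controls (SD, n = 3 each, exact permutation p = 1). At the PDGFRA step, a comparison added after the step was seen, it was 2.68 ± 0.09 with silencing and 2.53 ± 0.46 among the controls (SD, n = 3 each, exact permutation p = 1). That difference turned from 0.15 to −0.12 without control replicate 2. With 3 libraries against 3 the exact test cannot go below 0.1.

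The 63 members called in all 6 libraries were also compared by rank within the lists, fitted with all 37284 such regions of the genome. By limma with Benjamini-Hochberg adjustment 0 members passed 0.05 (0.00% of all regions did), and the smallest adjusted p was 0.963. At an unadjusted p under 0.05 there were 5 members (7.94%), 1 higher and 4 lower in silenced libraries, where 4.68% of all regions fell under that limit. The score was higher in silenced libraries for 28 members and lower for 35, with a median difference of −0.09 against 0.01 over all regions. For the tallest region of PDGFRA the score difference was 0.28 (SE 0.31, limma adjusted p = 0.966).

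The 3 members with the smallest p-values in each direction show the size of what was seen. A region in SCFD2 (52911703 to 52912102), whose product belongs to a family of vesicle trafficking proteins, had heights of 9, 11 and 11 with silencing and 17, 27 and 22 in the controls (replicates 1 to 3). Its score differed by −0.84 (SE 0.26, limma adjusted p = 0.963). A region 137294 bp from SPATA18 (52234313 to 52234874) had 13, 18 and 13 in the silenced and 29, 34 and 25 in the control libraries, with a score difference of −0.79 (SE 0.27). For these 2 regions neither difference in rank passed the adjustment. A region in LINC02928 (55386075 to 55386454) had 10, 13 and 6 against 12, 24 and 20. In the other direction, a region 10658 bp from SPATA18 (52107797 to 52108117) had 8, 14 and 10 in the silenced and 7, 8 and 7 in the control libraries, with a score difference of 0.85 (SE 0.38). A region 152401 bp from LNX1 (53804638 to 53805118) had 8, 8 and 5 against 5, 5 and 5. The POLR2B start region (56978640 to 56979205) had 35, 47 and 22 against 24, 39 and 37. All 6 score differences had a limma adjusted p of 0.963.

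Regions listed by all 3 silenced libraries and no control library numbered 1 (0.0856% of members, against 0.130% of all regions). Those listed by all 3 control libraries and no silenced library numbered 6 (0.514% of members, against 0.200% of all regions). The silenced one (56863085 to 56863372), outside genes and 41359 bp from SPINK2, had heights of 5, 6 and 4. The tallest of the control ones (52139551 to 52139889), 42421 bp from SPATA18, had 8, 11 and 10. The others had heights from 2 to 8. They lay in LOC107986279 (52305779 to 52306310), between genes at 52535670 to 52536127 and 53955263 to 53955681, in EXOC1-AS1 (55920520 to 55920901) and in HOPX (56668279 to 56668593). The FDR of the region in EXOC1-AS1 reached 0.516. A pattern of 3 against 0 lists cannot pass an exact test for a single region.

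Genes of the same signalling pathways elsewhere in the genome gave a setting for the 3 receptors. Of 10 ligand genes 8 had a gene-end peak in all 6 libraries, of 5 related receptors 2, and of 2 co-receptors 1, where 58.0% of all protein-coding genes had one. Among ligands, VEGFB was called in 5 libraries and VEGFD in none. Among receptors, FLT1 was called in 4, and CSF1R and FLT4 in 3 each. The co-receptor NRP2 was called in 5. Peaks at either end of a gene span counted here. In control replicate 2 the peaks counted for PDGFA (height 5) and PDGFRB (height 11) lay at the end away from the start. That of PDGFRB was also the peak counted for CSF1R. The counts are thus not counts of peaks at gene starts. VEGFC, a ligand of lymphatic vessel growth on the same chromosome, had gene-end heights of 13, 19 and 4 with silencing and 14, 20 and 14 in the controls (replicates 1 to 3).

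PDGFC, a ligand of the receptor that PDGFRA encodes, also lies on chromosome 4 (156760454 to 156971799), outside the window. Its gene-end peak had heights of 61, 69 and 28 with silencing and 80, 71 and 53 in the controls (replicates 1 to 3). The local background within 25 kb of its span was 6.95, 7.31 and 5.50 times the chromosome value in the silenced and 7.29, 4.37 and 7.10 times in the control libraries. At PDGFRA it was 5.21, 6.34 and 5.07 times in the silenced and 6.40, 3.89 and 6.51 times in the control libraries, lower than at PDGFC in each library. In 10 kb steps the local background at PDGFC was raised without a break for 260 kb, from 156730001 to 156990000, the longest such run of chromosome 4. The run at PDGFRA and one at 950001 to 1050000 shared the next length, 100 kb.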

How the data were processed

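Per the submitters' processing notes, Trimmomatic 0.36, Bowtie2 2.2.6, Picard 2.8.2, MACS2 2.1.1 and bedtools 2.25.0 were used with GRCh38, and their parameters are not given in the sources used here. The authors deposited 1 peak list per library. Per the file headers it holds the fold enrichment (a ratio), a p-value with an FDR, and the pileup signal, called height. Each is the authors' value for a peak. Tests used ratios or ranks taken within a list, and heights printed library by library are not scaled for depth. Read numbers are not given, so depth is unknown. Lists held 91346 to 170882 peaks on chromosomes 1 to 22, X and Y, with lowest local backgrounds of 0.237 (silenced replicate 3) to 0.464 (control replicate 2), and control replicate 2 alone had no peak under a height of 3.

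Gene spans came from a RefSeq table (GRCh38.p14) with no exons, so positions in exons or UTRs were not analysed here. Ratios of the window to the rest of chromosome 4 were tested over libraries by exact sign-flip or permutation tests, with Benjamini-Hochberg adjustment over 7 tests, of which 6 were planned and that at the PDGFRA step was added after seeing the data. Steps of chromosome 4 with no peak in any list were left out of the density. For regions called in all 6 lists, fold enrichments were ranked within a list, turned into normal scores and fitted with limma 3.58.1 (R 4.3.3). The statistics were tested on simulated data. Python 3.11.15 was used for the rest. The named genes were the 3 receptors, the 10 genes with the tallest gene-end peaks, genes with none, and pathway genes called in under 6 lists, with PDGFC and VEGFC added for their chromosome. The named regions were the 10 tallest, those called in 1 group only and the 3 smallest p-values in each direction. Members and lists were chosen with earlier results of these data known.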

Additional observations from a re-analysis of the deposited data

How the results depend on the processing

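Values here are on the log2 scale, and group differences are silenced minus control. The window's density ratio of 0.73 stayed between 0.68 and 0.76 when each library was left out, where the exact sign-flip test gives p = 0.0625 at best, and was 0.63 without silenced replicate 3 and control replicate 2 together (p = 0.125). It turned to −0.0284 against all other autosomes. The height ratio of 0.06 (0.05 to 0.08 without single libraries) passed 0.05 at an FDR of at most 1e-05 (0.19) and among regions called in all 6 libraries (0.25), and turned to −0.0288 at gene ends. Against all other autosomes it was −0.134, below 0 in 6 of 6 libraries, with the same exact sign-flip p = 0.03125 as those 2 settings. The local background ratio of 0.08 (0.06 to 0.10 without single libraries) passed at an FDR of at most 1e-05 (0.21) and as the share of peaks above the lowest background (0.46), and turned to −0.0187 at gene ends and −0.0462 against all other autosomes. The cause was not tested.

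The group differences changed sign often. That in height (−0.0018) turned to 0.0616 under the 1e-05 limit on FDR, 0.0045 against the rest of the long arm and 0.14 with median heights, and ran from −0.0484 to 0.0292 without single libraries. That in density (−0.0024) turned to 0.0531 against all other autosomes and to 0.0539 without silenced replicate 3 and control replicate 2, and ran from −0.0721 to 0.122. That in local background (−0.0082) turned to 0.204 under that limit, 0.174 at gene ends and 0.0816 as the share above the lowest background, and ran from −0.0651 to 0.0312. That at the PDGFRA step (0.15) turned to −0.00083 with the lower quartile and ran from −0.12 to 0.29. The local background difference reached the smallest p that 3 against 3 allow (exact permutation p = 0.1) under the FDR limit and at gene ends, with each silenced library above each control library. A p that cannot go lower shows no stability. With pairing by replicate number (replicate block) the differences were −0.0018, −0.0024, −0.0082 and 0.15, as without it (exact sign-flip p = 1 in each). In limma the block called 0 members. Same-numbered libraries deviated together with correlations of −0.00196, 0.00238 and −0.00829 over the 37284 regions called in all 6 and of −0.00129, −0.112 and 0.193 over the 63 members among them, so not every pair was above 0.1 and the numbers were not taken to pair the libraries.

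The rank comparison called 0 members in each of its 11 settings. The 2 raised steps became 1 at a ratio of at least 3, 1 with the lower quartile and 1 with height in place of background. The PDGFRA step was the one left with the first 2, and the PPAT step with height. Over the rest of chromosome 4 the shares raised in these 3 settings were 1.57%, 1.31% and 1.57%. At a ratio of at least 1.5 the window had 2 of 30 (6.67%, against 8.36% of the rest). In steps of 50 kb it had 3 of 23 (13.0%, against 13.5%), both 50 kb pieces of the PDGFRA step and one with NOA1 and POLR2B, and not PPAT. Without single libraries the count stayed at 2. Regions called in silenced libraries alone numbered 1, but 0 under the FDR limit, and between 2 and 14 without single libraries (14 of 973 members without silenced replicate 2, against 0.786% of all regions). Those called in control libraries alone numbered 6, but 1 under that limit, and between 6 and 20 (20 of 1124 without control replicate 2, against 1.37% of all regions), partly because fewer lists must meet the condition.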

Other observations

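Raised 100 kb steps on the rest of chromosome 4 were few. The highest median ratio, 13.6 times, belonged to the step from 99900000 to 100000000 with H2AZ1, which encodes a histone variant, and DNAJB14. Next came steps at PDGFC with 8.20 and 7.04 times, then the step from 1700000 to 1800000 with FGFR3, another receptor tyrosine kinase gene, at 6.60 times. The PDGFRA step had 6.58 times. These steps were picked with their values in view, and copy number was not measured by another assay here.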
